A study of Mus musculus with 6 samples.

Results

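Psca, Slurp1 and their relatives are small proteins of the Ly6/uPAR family, named after the lymphocyte antigen 6 proteins and the urokinase receptor. The 9 genes described here are Psca, Slurp1, Lypd2, Lypd3, Lynx1, Ly6a, Ly6d, Ly6e and Ly6g6c. They were picked by family membership around Psca, whose lower level in DN-Clim corneas had already been seen in these data. Of the 9 genes, 8 had a probe set paired with that gene alone, out of 35557 probe sets on the array, and each of the 8 had 1 such probe set. Ly6a had none and is given no value. All 8 were measured without a filter on low values.

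A Ly6/uPAR domain is a compact fold of finger-like loops held together by disulfide bonds. Most family members are tied to the outer face of the cell membrane by a glycolipid (GPI) anchor, while Slurp1 and Slurp2 are secreted. Several members bind nicotinic acetylcholine receptors and tune their response, and others mark epithelial differentiation or respond to interferon. In the cornea, Slurp1 is known as a product of the adult epithelium that restrains inflammation, and the transcription factor Klf4 is known to control it in mice.

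Whole corneas were taken at postnatal day 3 from mice carrying the K14-DN-Clim transgene and from their wild-type (WT) littermates, with 3 samples in each group. The transgene makes a dominant-negative CLIM protein from the K14 promoter, which is active in basal cells of stratified epithelia. CLIM proteins act as partners of LIM-domain transcription regulators. The sources used here give neither strain, sex nor the number of transgenic lines, and do not say whether a sample pooled animals. All p-values therefore measure the spread between these samples, part of which may be technical. RNA was amplified and hybridised to Affymetrix Mouse Gene 1.0 ST arrays. Levels are log2(intensity + 16) throughout, and each difference is the DN-Clim mean minus the WT mean on that scale.

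The DN-Clim arrays differed among themselves, and whether the transgene had a part in this was not tested. The mean over 14 lens genes was 11.65, 11.80 and 8.40 in DN-Clim replicates 1, 2 and 3, against values from 8.56 to 8.97 in WT. The mean over 9 retina genes was 8.81, 9.45 and 8.06 in DN-Clim, against 7.75 to 8.48 in WT. Array medians ran from 7.95 to 8.21 in DN-Clim and from 8.11 to 8.17 in WT. Differences of the Ly6 genes are therefore also given for DN-Clim replicates 1 and 2 and for replicate 3 by itself. Markers of cornea were bright in both groups, with Krt12, the keratin of corneal epithelium, at 11.04 to 11.95 in DN-Clim and 11.21 to 11.55 in WT. Kera, a proteoglycan of the corneal stroma, lay between 11.96 and 12.75 in DN-Clim and between 12.56 and 13.09 in WT.

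Psca fell in the DN-Clim corneas to 0.26 of its mean WT intensity, and no other gene of the set passed the test with all arrays, where 0.0128% of all probe sets passed as lower. It encodes prostate stem cell antigen, a GPI-anchored surface protein of bladder, stomach and other epithelia. It read 7.93, 7.99 and 7.97 in DN-Clim replicates 1, 2 and 3, against 9.85, 10.00 and 9.65 in WT replicates 1, 2 and 3. The groups did not overlap, with a gap of 1.66 between the lowest WT array and the highest DN-Clim array. On the deposited linear scale the intensities were 228, 238 and 235 in DN-Clim, against 905, 1007 and 787 in WT. The means were 234 in DN-Clim and 900 in WT. Background that remains in such intensities makes a ratio less extreme than that of the transcripts, and the sources used here do not give its size.

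The DN-Clim arrays spread far less than the difference between the groups. The mean of Psca was 7.96 ± 0.03 in DN-Clim and 9.83 ± 0.18 in WT (SD, n = 3 each), a difference of -1.87 (SE 0.178). Psca was chosen because of this difference, so no test of it is given as support. With any 1 array other than DN-Clim replicate 3 left out it no longer passed, while the difference stayed between -1.96 and -1.78, and it did not pass with quantile normalization (-1.85). In whole-cornea RNA, fewer cells that make a transcript and less of it per cell cannot be told apart. Replicate 3, the DN-Clim array without the lens signal, had the same low Psca level as the other DN-Clim arrays: the difference from WT was -1.87 for DN-Clim replicates 1 and 2 and -1.86 for replicate 3 alone.

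**Figure D1:**
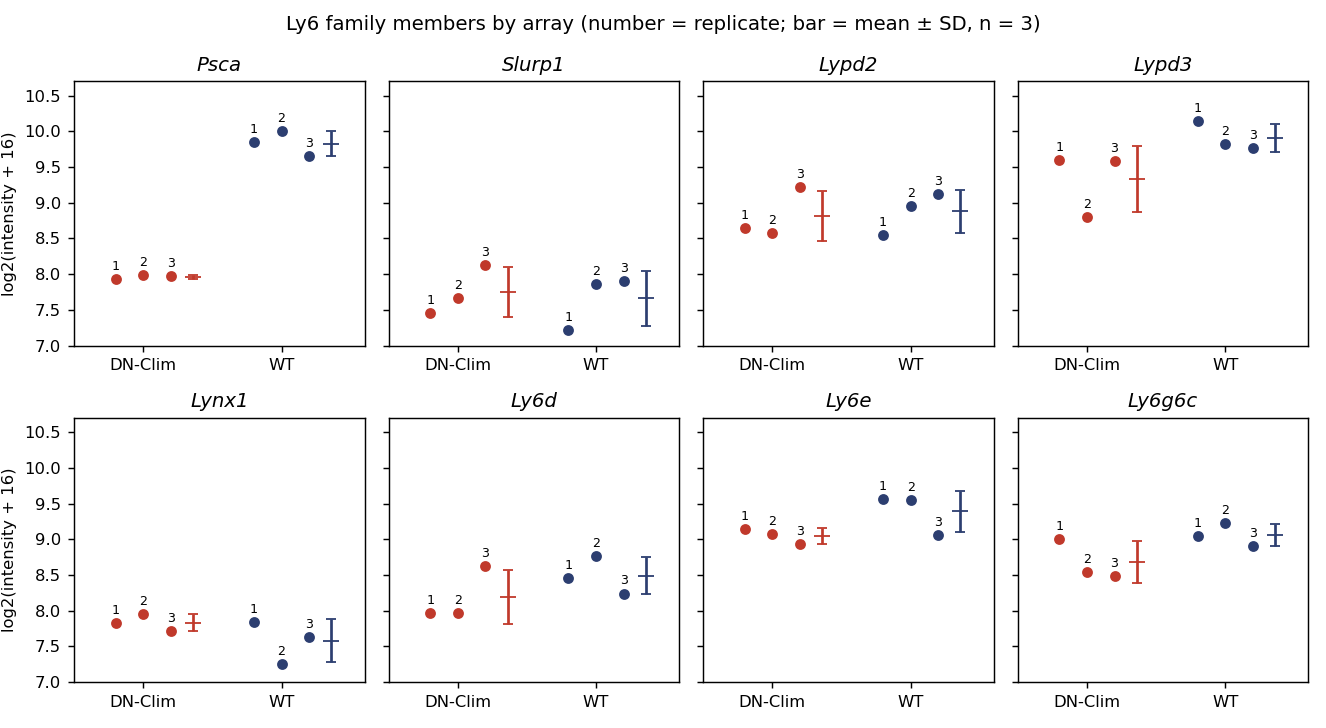
Level of each of the 8 measured Ly6 genes on every array, as log2(intensity + 16), with DN-Clim arrays left (red) and WT arrays right (blue). Numbers mark the replicate, and bars give the mean ± SD of 3 arrays. Psca sits between 7.93 and 7.99 on the DN-Clim arrays and between 9.65 and 10.00 on the WT arrays, while most of the other genes overlap between the groups.

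Lypd3, also called C4.4A, is a GPI-anchored protein of the suprabasal layers of squamous epithelia. It read 9.60, 8.80 and 9.59 in DN-Clim, against 10.14, 9.82 and 9.77 in WT. It was the other gene of the set whose groups did not overlap, but the gap was 0.17 and DN-Clim replicate 2 lay well below the other DN-Clim arrays. The difference was -0.58 (95% interval -1.14 to -0.01, limma adjusted p = 0.836), which did not pass. The intervals given here are not adjusted for the number of probe sets. It was -0.71 for DN-Clim replicates 1 and 2 and -0.32 for replicate 3 alone.

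Ly6d, a GPI-anchored antigen of keratinocytes and of early B-lineage cells, split the DN-Clim arrays. It read 7.97, 7.96 and 8.62 in DN-Clim, against 8.46, 8.77 and 8.24 in WT. Replicates 1 and 2 lay below all WT arrays, and replicate 3 lay inside the WT range. The difference was -0.30 over all arrays (95% interval -0.85 to 0.24, limma adjusted p = 0.999). It was -0.52 for replicates 1 and 2 and 0.13 for replicate 3 alone, so its sign depended on which DN-Clim arrays were used. Replicates 1 and 2 are the arrays with the lens signal given above, whose part in these values was not tested.

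Slurp1, the secreted protein, and Lypd2, a little-studied family member, showed no consistent direction. Slurp1 read 7.45, 7.66 and 8.13 in DN-Clim, against 7.22, 7.86 and 7.91 in WT. On each array this was below the median of all probe sets, which ran from 7.95 to 8.21. Whether Slurp1 stood above background was not tested. The highest Slurp1 value was in DN-Clim replicate 3 and the lowest in WT replicate 1. Both groups had ranges of nearly the same width. The difference was 0.09 (95% interval -0.49 to 0.67). Lypd2 read 8.64, 8.57 and 9.22 in DN-Clim, against 8.55, 8.96 and 9.12 in WT, with its highest and lowest values on the same arrays as Slurp1. The Lypd2 difference was -0.07 (95% interval -0.61 to 0.47), and both genes had a limma adjusted p of 0.999. Replicates 1 and 2 gave -0.11 for Slurp1 and -0.27 for Lypd2, and replicate 3 alone gave 0.47 and 0.34 in that order. Klf4 itself read 8.38, 7.74 and 8.86 in DN-Clim, against 8.93, 8.73 and 8.33 in WT, a difference of -0.34 that did not pass (limma adjusted p = 0.999).

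Lynx1 is a GPI-anchored protein that damps nicotinic receptor signalling in neurons. It read 7.83, 7.95 and 7.72 in DN-Clim, against 7.84, 7.25 and 7.63 in WT, and the low value in WT replicate 2 set the lower end. The Lynx1 means, 7.83 in DN-Clim and 7.58 in WT, lay below every array median. The groups overlapped, and the difference was 0.26 (95% interval -0.20 to 0.72, limma adjusted p = 0.999), with 0.31 for DN-Clim replicates 1 and 2 and 0.15 for replicate 3 alone. Slurp2, the secreted relative that lies beside Lynx1 in the genome, read 7.64, 7.62 and 8.35 in DN-Clim, against 7.97, 7.86 and 7.75 in WT. Its difference of 0.01 was made up of lower values in replicates 1 and 2 (-0.23) and a higher one in replicate 3 (0.48).

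Ly6e, an interferon-inducible GPI-anchored protein, and Ly6g6c, whose gene lies apart from the other Ly6 genes described here, were both a little lower on average. Ly6e read 9.14, 9.07 and 8.93 in DN-Clim, against 9.56, 9.55 and 9.06 in WT. The groups overlapped through WT replicate 3, which lay below DN-Clim replicates 1 and 2. The difference was -0.34 (95% interval -0.80 to 0.11, limma adjusted p = 0.958), with -0.28 for DN-Clim replicates 1 and 2 and -0.46 for replicate 3 alone. Ly6g6c read 9.01, 8.54 and 8.48 in DN-Clim, against 9.04, 9.23 and 8.91 in WT. Here DN-Clim replicate 1 lay inside the WT range and the other DN-Clim arrays below it. The difference was -0.38 (95% interval -0.85 to 0.08, limma adjusted p = 0.929), and it was -0.58 for replicate 3 alone and -0.28 for replicates 1 and 2.

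Across the 8 measured genes, 1 passed the adjusted threshold of 0.05 in limma, Psca, where 0.0128% of all 23410 tested probe sets passed as lower. Psca led to the choice of the set, so that count, and Psca's place in the counts and medians that follow, say nothing about the family. The DN-Clim arrays lay wholly below the WT arrays for 2 of the 8, Psca and Lypd3, where this held for 6.95% of all probe sets, and wholly above for 0 of the 8, against 3.2% of all. The difference was below 0 for 6 of the 8, against 57.2% of all probe sets, with a median of -0.32 against -0.04 for all. Among the 7 genes other than Psca, 1 had DN-Clim arrays wholly below WT, 5 had a difference below 0, and the median was -0.30. Without DN-Clim replicate 3, Psca was again the 1 gene of the 8 that passed, where 1.52% of all probe sets passed as lower. The medians were then -0.28 for the 8 genes and -0.12 for all probe sets. With replicate 3 as the DN-Clim array, they were -0.09 for the 8 genes and 0.06 for all. Over the 7 genes other than Psca the median was -0.28 without replicate 3 and 0.13 with replicate 3 alone.

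**Figure D2:**
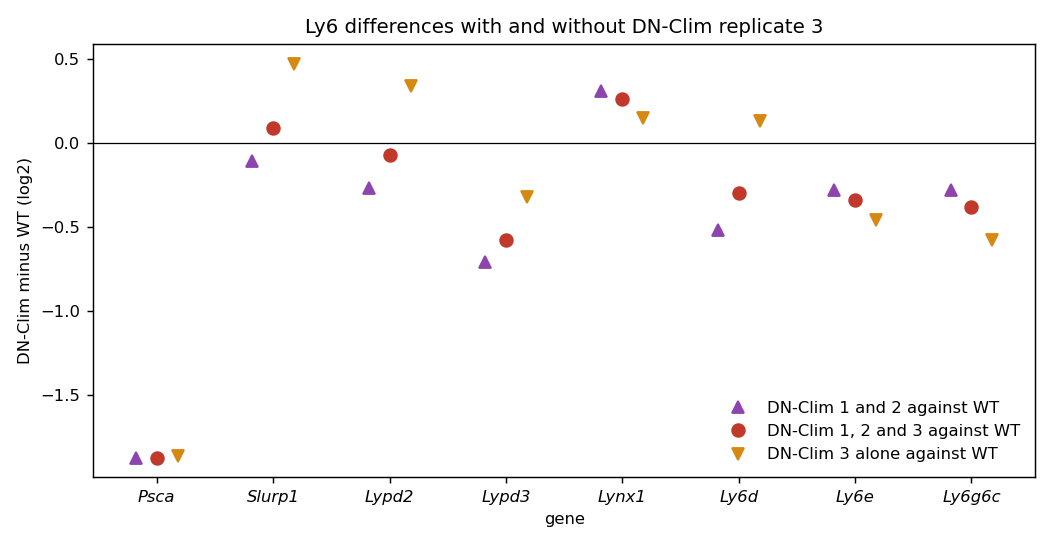
Difference DN-Clim minus WT (log2, vertical axis) of the 8 measured Ly6 genes, from DN-Clim replicates 1 and 2 (purple), all 3 DN-Clim arrays (red) and DN-Clim replicate 3 alone (orange), each against the 3 WT arrays. Psca is at -1.87, -1.87 and -1.86, while Slurp1, Lypd2 and Ly6d lie on both sides of 0.

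Most of these genes lie in the same stretch of the genome, with other genes between many of them. In the RefSeq table of GRCm38.p6, Psca, Slurp1, Lypd2, Lynx1, Ly6d, Ly6e and Ly6a lie on chromosome 15, in a stretch with other Ly6 genes that runs from Arc to Gpihbp1, while Lypd3 is on chromosome 7 and Ly6g6c on chromosome 17. The stretch was outlined after the values were known. It holds 31 protein-coding genes, of which 23 were measured. Psca lies next to Jrk, which encodes a nuclear protein, on one side and Them6, which encodes a thioesterase-like protein, on the other, followed by Slurp1 and Lypd2. Jrk read 8.00, 7.88 and 7.95 in DN-Clim, against 8.07, 8.11 and 8.01 in WT, a difference of -0.12. Them6 read 7.07, 6.90 and 7.60 in DN-Clim, against 7.04, 7.29 and 7.08 in WT, a difference of 0.05. The DN-Clim arrays lay wholly below WT for Jrk and not for Them6. Psca was chosen for its difference, so smaller differences at its neighbours follow largely from that choice. Over the 22 measured genes of the stretch other than Psca, differences ran from -0.41 (Gpihbp1, which carries lipoprotein lipase across capillaries) to 0.26 (Lynx1). Of the 22, 12 were below 0, where 57.2% of all probe sets were. The DN-Clim arrays lay wholly below WT for 2 of the 22, Jrk and Ly6i, where this held for 6.95% of all probe sets. Limma adjusted p-values of the 22 ran from 0.958 to 0.999.

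**Figure D3:**
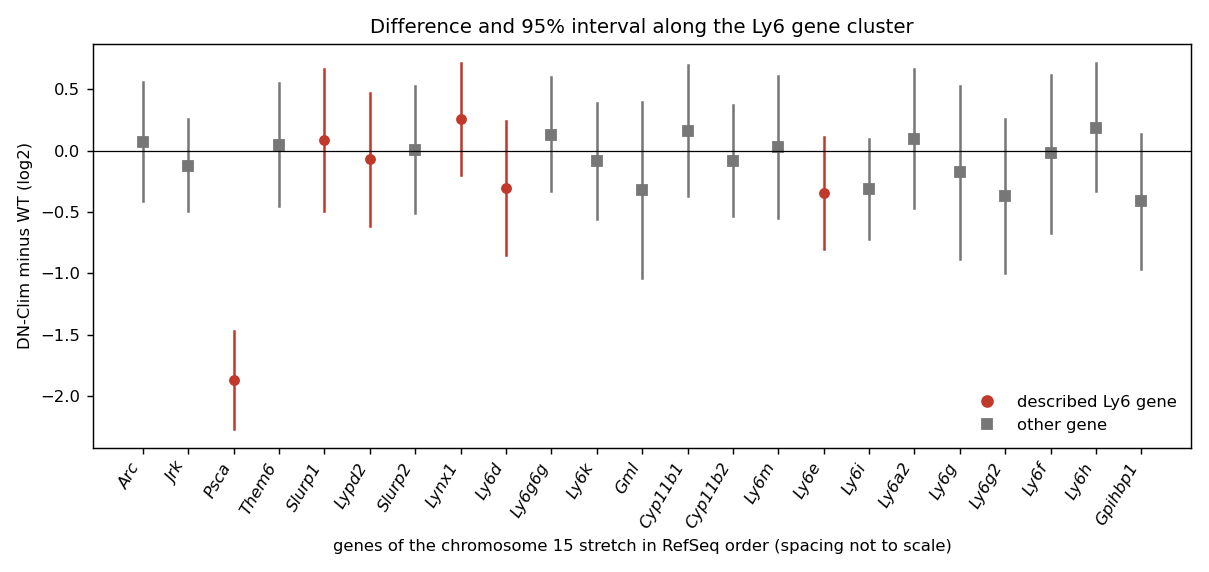
Difference DN-Clim minus WT (log2) with its 95% interval for the 23 measured protein-coding genes of the chromosome 15 stretch, in RefSeq order from Arc to Gpihbp1. Red circles are the Ly6 genes described here and grey squares the others. Psca stands at -1.87, and the other 22 lie between -0.41 and 0.26.

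The rest of the Ly6/uPAR family was read from a list of 30 further genes, 25 of them measured. None rose or fell past the threshold in limma, 0 had an unadjusted p under 0.05, where 5.94% of all probe sets did and which is the share to set beside each such count below, and the median difference was -0.09, against -0.04 for all probe sets. The member with the smallest unadjusted p was Ly6i, a Ly6 gene of the same stretch, which read 6.64, 6.63 and 6.77 in DN-Clim, against 7.20, 6.84 and 6.92 in WT (limma adjusted p = 0.958). Next came Gpihbp1, at 8.30, 7.92 and 8.81 in DN-Clim, against 8.87, 8.81 and 8.58 in WT (limma adjusted p = 0.96). For both, replicates 1 and 2 lay below WT, and replicate 3 did so for Ly6i and not for Gpihbp1. The lowest difference in the list was -0.54 and the highest 0.23, against -1.87 for Psca. The list median was -0.29 for DN-Clim replicates 1 and 2 and 0.24 for replicate 3 alone, with the sign turned between them.

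Genes that Ly6 proteins act through or depend on were read in the same way. Of 16 nicotinic receptor subunits, none passed in limma with all arrays, 2 had an unadjusted p under 0.05, and the median difference was 0.02. Chrna1, the muscle-type alpha subunit, read 6.57, 6.12 and 7.81 in DN-Clim, against 8.04, 8.02 and 7.61 in WT. Its low values were on replicates 1 and 2, and it fell by 1.55 when replicate 3 was left out (limma adjusted p = 0.0143). It was the 1 subunit of the 16 that then passed, where 1.52% of all probe sets passed as lower. With all arrays Chrna1 differed by -1.06 (limma adjusted p = 0.788). Chrnb4, a neuronal beta subunit, read 9.15, 10.28 and 9.48 in DN-Clim, against 8.86, 9.03 and 8.97 in WT (limma adjusted p = 0.819). Chrna7, the subunit through which Slurp1 is known to act in human keratinocytes, differed by -0.06. Of 28 genes that make or attach GPI anchors, none passed in limma, 0 had an unadjusted p under 0.05, and the median was -0.03. Pigk, the catalytic subunit of the transamidase that attaches the anchor, differed by -0.69 (limma adjusted p = 0.853), with groups that overlapped. Pigc, an enzyme of the first step of anchor synthesis, differed by -0.40 (limma adjusted p = 0.891).

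Epithelial genes had smaller differences than Psca. Of 15 measured genes of differentiated corneal epithelium, all had differences below 0, where 57.2% of all probe sets did. The median was -0.47, against -0.04 for all probe sets. None of the 15 passed in limma, and 3 had an unadjusted p under 0.05. Their mean level was 9.34, 8.90 and 9.62 in DN-Clim replicates 1, 2 and 3, against 9.91, 9.66 and 9.60 in WT. On replicate 3 this list's mean was inside the WT range, just above its lowest value of 9.60. The DN-Clim arrays lay wholly below WT for 2 of the 15 genes, where this held for 6.95% of all probe sets. The part of the epithelium in the Psca values was not tested. Cldn7, a tight junction claudin, differed by -0.71 (limma adjusted p = 0.72) and Aldh3a1, an abundant corneal aldehyde dehydrogenase, by -1.09 (adjusted p = 0.767). Without replicate 3, Aldh3a1 fell by 1.62 (limma adjusted p = 0.00446), the 1 gene of this list that then passed. In that fit 1.52% of all probe sets passed as lower. With replicate 3 alone Aldh3a1 differed by -0.03. Of 9 basal epithelial genes none passed in limma and 1 had an unadjusted p under 0.05. All 9 had differences below 0, against 57.2% of all probe sets, with a median of -0.28. The DN-Clim arrays lay wholly below WT for 3 of the 9, against 6.95% of all. The basal list means were 10.35, 10.06 and 10.60 in DN-Clim, against 10.81, 10.66 and 10.44 in WT. Krt14, a keratin of basal cells and the source of the K14 promoter, read 11.30, 11.31 and 11.83 in DN-Clim, against 12.26, 12.08 and 11.99 in WT. Its difference was -0.63 (limma adjusted p = 0.721), and without replicate 3 it fell by 0.81 (adjusted p = 0.0471). It was the 1 gene of the basal list that then passed, against the same 1.52% of all probe sets. Itga6, an integrin of hemidesmosomes, differed by -0.49 (adjusted p = 0.845).

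Markers of squamous and conjunctival epithelium gave the following values. Of 11 epidermal genes none passed in limma, 2 had an unadjusted p under 0.05, and the median was -0.21, with -0.47 for DN-Clim replicates 1 and 2 and 0.30 for replicate 3 alone. Sbsn, a secreted protein of suprabasal keratinocytes, read 8.98, 8.99 and 9.0 in DN-Clim, against 9.53, 9.52 and 9.55 in WT. All 3 DN-Clim arrays were alike, replicate 3 included, and the difference of -0.54 did not pass (limma adjusted p = 0.693). Krtdap, a keratinocyte differentiation protein, read 9.99, 9.19 and 9.34 in DN-Clim, against 10.40, 10.87 and 10.92 in WT (limma adjusted p = 0.473). Of 9 conjunctival genes none passed in limma and 1 had an unadjusted p under 0.05, with a median of -0.27 and array means of 9.17 to 9.76 in DN-Clim, against 9.62 to 10.35 in WT. Krt7 differed by -0.63 (limma adjusted p = 0.814) and Krt19 by -0.54 (adjusted p = 0.859). Both are simple epithelial keratins that conjunctiva also makes.

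The vessel and immune cell lists had lower mean levels on every DN-Clim array than on any WT array, though not every gene in them did. Of 12 vascular endothelial genes, 1 fell, Emcn, where 0.0128% of all probe sets fell, and 6 had an unadjusted p under 0.05. The DN-Clim arrays lay wholly below WT for 6 of the 12, where this held for 6.95% of all probe sets. Without DN-Clim replicate 3, 3 of the 12 fell, against 1.52% of all. The list had a median of -0.55 and array means of 7.84 to 8.25 in DN-Clim, against 8.61 to 8.87 in WT. Of the 12, 10 had a difference below 0, where 57.2% of all probe sets did. The other 2, Kdr (0.39) and Plvap (0.29), were above 0. Emcn, an endothelial sialomucin, read 7.31, 7.39 and 7.68 in DN-Clim, against 9.82, 9.74 and 10.14 in WT. Of 11 macrophage and leukocyte genes none passed in limma and 4 had an unadjusted p under 0.05. The DN-Clim arrays lay wholly below WT for 6 of the 11, against the same 6.95% of all, and array means were 7.95 to 8.12 in DN-Clim, against 8.46 to 8.64 in WT. Mrc1, a mannose receptor, differed by -1.46 (limma adjusted p = 0.341) and Lyz2, a lysozyme, by -0.79 (adjusted p = 0.622). The part of these cells in the Psca values was not tested. Of 13 interferon response genes, set beside Ly6e, none passed in limma, 1 had an unadjusted p under 0.05, and the median was -0.10. Ifih1, a sensor of viral RNA, differed by -0.62 (limma adjusted p = 0.718), and Ifit2, an interferon-induced antiviral protein, by -0.38 (adjusted p = 0.845).

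The lists for other tissues included the largest positive medians. Lens genes had a median of 1.58 and retina genes of 0.82, and none of them passed in limma with all arrays, where 9 lens and 3 retina genes had an unadjusted p under 0.05. Without DN-Clim replicate 3 the lens median was 2.97 and the retina median 1.31. Then 9 of 14 lens genes and 2 of 9 retina genes rose, against 0.547% of all probe sets. Replicate 3 was set apart by these same lens and retina levels, so the outcome was largely fixed beforehand. For replicate 3 alone the medians were -0.06 for lens and 0.12 for retina. Cryab, a lens crystallin that is also a stress protein, differed by 0.94 (limma adjusted p = 0.687) and Lim2, of the lens fibre membrane, by 1.48 (adjusted p = 0.718). The retinal genes Pde6b and Six6 differed by 1.36 and 1.32 (both adjusted p = 0.788). Of 10 keratocyte and stromal genes none passed in limma and 7 had an unadjusted p under 0.05 (5.94% of all probe sets), with a median of -0.86 for all arrays, -1.28 for DN-Clim replicates 1 and 2 and -0.01 for replicate 3 alone. Without replicate 3, 5 of the 10 fell, against 1.52% of all probe sets, and 1 rose, against 0.547%. Their array means were 10.50, 10.18 and 11.29 in DN-Clim, against 11.58, 11.40 and 11.24 in WT. The collagen gene Col3a1 differed by -1.48, and Aldh1a1, which oxidises retinaldehyde, by 1.15 (both limma adjusted p = 0.612).

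**Figure D4:**
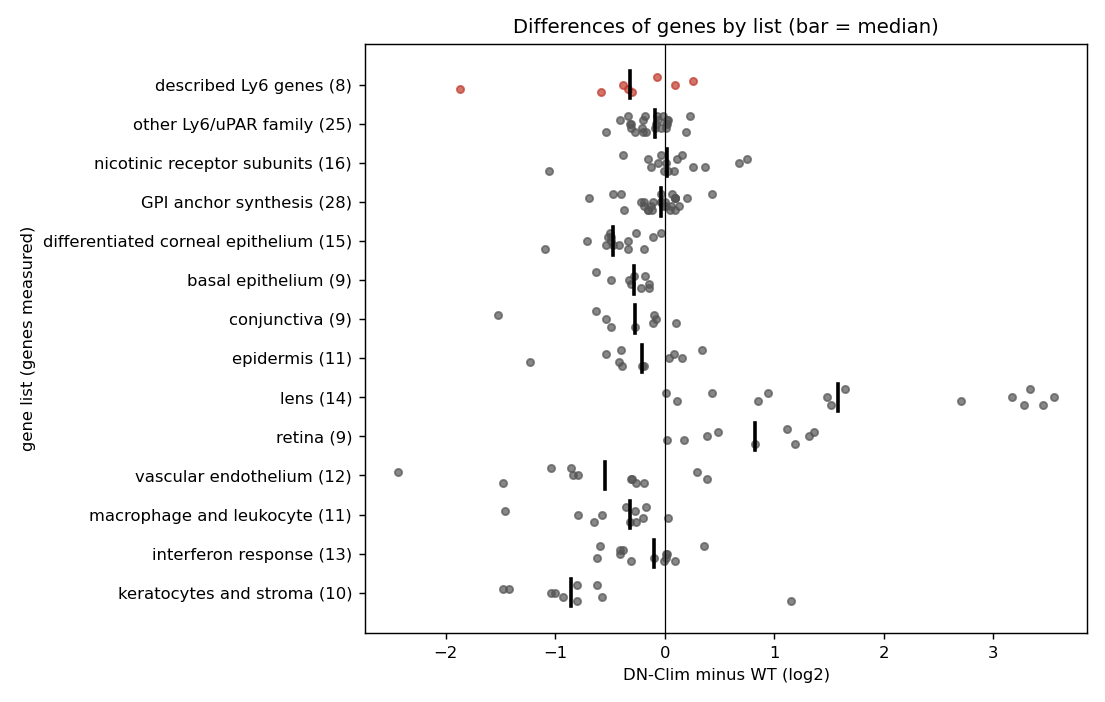
Difference DN-Clim minus WT (log2, horizontal axis) of every measured gene in the 14 lists, one row per list, with the number of genes measured in brackets and a black bar at the list median. The described Ly6 genes are red. Psca is the leftmost red point at -1.87, the other Ly6/uPAR genes lie between -0.54 and 0.23, and lens genes reach 3.56.

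The genes whose levels followed Psca most closely over the 6 arrays were picked by Pearson correlation among 5716 genes with a mean of at least 7 and an SD of at least 0.3. These correlations are descriptions: the arrays fall into the DN-Clim and WT groups, and a gene low in all DN-Clim arrays will correlate with Psca. Pls3, an actin-bundling plastin, came first (r = 0.994), at 9.38, 9.39 and 9.46 in DN-Clim, against 10.31, 10.33 and 10.32 in WT. Cxcl12, a chemokine, came next (r = 0.993), at 8.15, 8.09 and 8.07 in DN-Clim, against 8.79, 8.82 and 8.79 in WT. Sugct, a mitochondrial CoA transferase, followed at 0.991, Ecm1, a secreted matrix protein, at 0.983 and Abca9, a membrane transporter, at 0.982. All 5 had DN-Clim arrays wholly below WT, which held for 6.95% of all probe sets and here follows largely from how they were picked. Their differences were smaller than that of Psca, from -0.63 for Sugct to -1.32 for Abca9. For Slurp1 the nearest were Hs3st2, a heparan sulfate sulfotransferase (r = 0.972), Adpgk, an ADP-dependent glucokinase (0.949), Bet1, a vesicle transport protein (0.942), Tekt1, a tektin of cilia (0.934), and Nupr1l (0.928). Their groups all overlapped, with differences from -0.06 for Adpgk to 0.20 for Nupr1l.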

How the data were processed

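Each array gave linear probe set intensities, which the authors made with Affymetrix Expression Console 1.1 and PLIER, per the submitters' processing notes. The sources used here do not give the background correction, the normalization between arrays or a genome build. Intensities were taken as log2(intensity + 16), which understates changes of dim genes, and were not normalized again. In the platform annotation 23410 probe sets had at least 1 gene, 21789 of them exactly 1 symbol and 1621 several, and the 12147 without a gene were left out of the test. DN-Clim was set against WT over the 23410 with limma 3.58.1 in R 4.3.3 (lmFit, eBayes) and the Benjamini-Hochberg method. The fit was tested on simulated data. A gene was read from its probe set of highest mean. The number of arrays limits the precision.

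The genes and lists were chosen with earlier results of these data known. All Ly6 members, Klf4 and Krt14 were named. From each list up to 3 passing genes were named, or the 2 with the smallest p where none passed. The 5 genes nearest to Psca and to Slurp1 by correlation were added, leaving out predicted loci and olfactory receptors. Jrk, Them6, Slurp2, Chrna7, Krt12 and Kera were picked after their values were seen. List genes without a probe set of their own were left out. The settings varied were the offset, the normalization (quantile or median), the probe sets tested (bright ones, or all), the variance prior, array weights, a replicate block, a lens covariate, and the arrays used. Other probe sets of a member were to be tried, but each had 1.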

Additional observations from a re-analysis of the deposited data

How the results depend on the processing

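Over 17 alternative settings the Psca difference lay between -1.96 and -1.69. It missed the threshold in 7: quantile normalization, all probe sets of the table and each single array left out except DN-Clim replicate 3. Psca was chosen for its difference, so its passing with other settings is not support. The number of the 8 Ly6 genes that passed was 1 with the main settings, 0 with quantile normalization, 0 with all probe sets of the table, 4 with array weights, and between 0 and 1 when single arrays were left out. The number of all probe sets that passed was 3, against 1 with quantile normalization, 0 with all probe sets of the table, 5 with a trended robust prior, 9004 with array weights, 6 with the lens covariate and 79 with DN-Clim replicate 3 alone, and it ran from 0 to 483 when single arrays were left out, the highest without DN-Clim replicate 3. With all 6 arrays 1390 probe sets had an unadjusted p under 0.05. The array weights gave DN-Clim replicate 1 a weight of 34.9, against 0.121 to 1.95 for the others, so that fit rests largely on 1 array. The estimate of these weights stopped short of its convergence tolerance, so its counts and calls are not reliable. In it Lynx1 (0.36), Ly6d (-0.61) and Ly6e (-0.29) also passed.

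With the replicate block, 9 probe sets passed, Psca among them with a difference of -1.87. Same-numbered arrays did not deviate together (correlations of 0.0172, -0.206 and -0.436). These correlations cannot show whether same-numbered samples shared a litter or a batch, which the sources used here do not give. The block changed no call among the 8 Ly6 genes.

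Small differences turned sign. Slurp1 was -0.29 with array weights and ran from -0.14 to 0.24 when single arrays were left out, below 0 without DN-Clim replicate 3 or WT replicate 1. Lypd2 was 6.12e-05 with median centring, 0.25 with the lens covariate and 0.34 with DN-Clim replicate 3 alone. It ran from -0.27 to 0.05 when single arrays were left out, above 0 without DN-Clim replicate 1, DN-Clim replicate 2 or WT replicate 3. Ly6d was 0.08 with the lens covariate and 0.13 with DN-Clim replicate 3 alone. The cause was not tested. DN-Clim replicate 3 alone is assumed to vary like WT.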
